A study of Mus musculus with 9 samples.

Results

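The genes described here encode 39 enzymes and enzyme subunits that feed and run the tricarboxylic acid cycle in mitochondria. They cover the pyruvate dehydrogenase complex, the cycle itself, the malate-aspartate shuttle, the breakdown of the branched-chain amino acids and the use of ketone bodies. They were chosen by gene symbol from a list of pathway members, and all 39 were measured, out of 18193 genes in all. Each gene was represented by its brightest probe set over the 9 arrays, and every value below is a log2 expression level unless a fold is stated.

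The tissue was the heart muscle of the right ventricle. All mice were male, of strain C57BL6J and 6 to 8 weeks old. In 5 samples the pulmonary artery had been banded, so that the ventricle pumped against a raised pressure, and 4 samples came from sham-operated mice. The mice were wild type. RNA was hybridised to one-colour Affymetrix arrays, whose small number limits the precision. Nothing in the labels says that each numbered replicate is a separate mouse, and p-values therefore measure only how far these samples spread, which may be technical. The study design names 5 mice, which may mean 5 of each kind, while 4 sham arrays were analysed here. The sources used here do not give the time since surgery.

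Pyruvate dehydrogenase turns pyruvate, the product of glycolysis, into acetyl-CoA, which citrate synthase passes into the cycle. Valine, leucine and isoleucine lose their amino group to the aminotransferase BCAT2, and the branched-chain ketoacid dehydrogenase complex then commits the carbon skeletons to oxidation. The heart is rich in the enzymes of the cycle, since it lives by mitochondrial respiration, and it also burns ketone bodies from the blood.

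The arrays carried high levels of the defining cardiomyocyte transcripts, and none of the 12 cardiomyocyte markers lay at the floor of the values, 2.198. Of these 12, 7 were lower in banding, 1 was higher and 4 missed the threshold. Their median difference was -0.25, and their summed level was 18.67 to 18.89 in banding and 18.95 to 19.01 in sham. All 10 fibroblast markers were higher, with a summed level of 17.28 to 17.54 in banding and 15.07 to 15.26 in sham. Of 10 macrophage markers 9 were higher, of 10 endothelial markers 5, of 6 smooth muscle markers 4 and of 5 atrial markers 1, and none was lower. Of 6 adipocyte markers 1 was lower, and Lep lay at the floor on every array. All 12 hepatocyte markers were lower in banding, and their summed level was 6.52 to 9.72 in banding and 13.41 to 17.16 in sham, with the highest value on sham replicate 4. The part of these cell types in the results below was not tested. In bulk tissue, fewer cells of a type and less RNA per cell cannot be told apart. Sham replicate 4 was the highest sham array for 1 of the 39 genes, Pdha1, and the lowest for 21.

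Banded ventricles held less mRNA for nearly every enzyme of these pathways. Of the 39 genes 37 were lower in banding, 0 were higher and 2, Mdh2 and Bdh1, did not pass (limma, adjusted p under 0.05 over all 18193 genes). Over all genes 38.4% were called in either direction and 20.0% were called lower, and 32.2% of the 10748 genes at or above the dim level, which is 2 log2 units above the floor. All banding arrays lay below all sham arrays in the same number of the 39 genes, 37, against 19.3% of all genes. The median difference was -0.96, against 0.00 over all genes tested. Past the threshold, 17 of the 39 genes fell by at least 1 log2 unit, as did 5.82% of all genes. Whatever their p, 988 of the 10748 genes at or above the dim level fell that far. The differences of the 39 genes ran from -1.86 to -0.07. Without sham replicate 4 and banding replicate 5, the arrays with the most liver transcripts of each group, the count was again 37 and the median -0.93. The summed hepatocyte level was still 13.41 to 14.76 on the other sham arrays and 6.52 to 6.88 on the other banding arrays. Liver transcripts thus remained unequal between the groups, and their part in the falls was not tested.

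**Figure D1:**
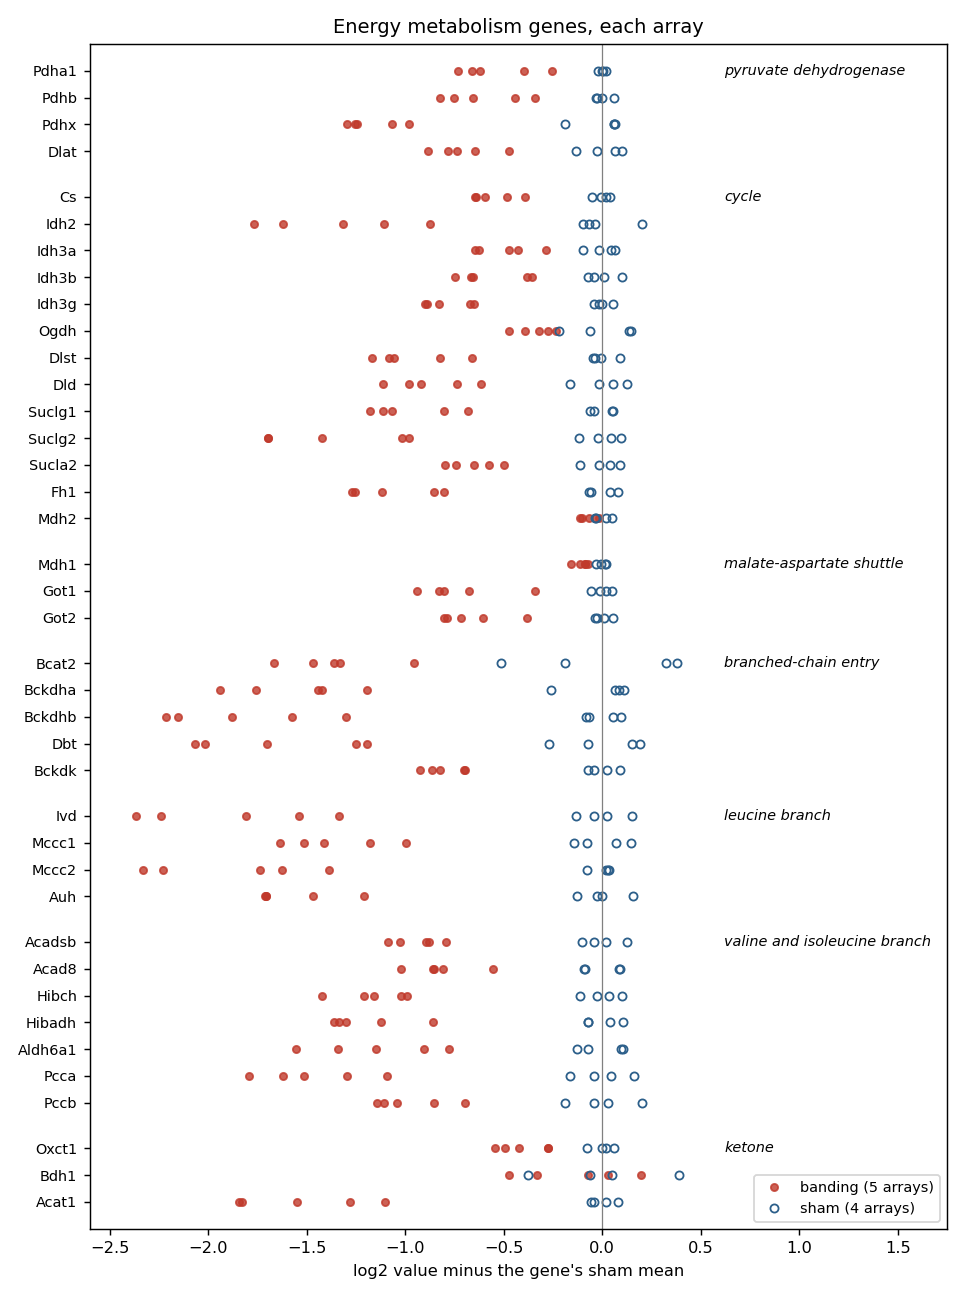
Each row is a gene and each point an array, placed by its log2 value minus the gene's mean over the 4 sham arrays, with the 5 banding arrays filled red and the 4 sham arrays open blue. The banding points lie left of all sham points for 37 of the 39 genes, and the points of Mdh2 and Bdh1 overlap.

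The groups of steps differed in the size of their falls. The median difference was -1.71 over the 4 genes of the leucine branch, -1.55 over the 5 genes of branched-chain entry and -1.14 over the 7 genes of the valine and isoleucine branch. It was -0.79 over the 13 cycle genes, -0.66 over the 3 shuttle genes, -0.65 over the 4 pyruvate dehydrogenase genes and -0.40 over the 3 ketone genes. All 16 branched-chain genes fell, 12 of them by at least 1 log2 unit. These medians rest on the brightest probe sets, and over the 39 genes those at a higher level tended to fall less (Spearman rho of 0.71). The differences between the medians, and the part of level in them, were not tested.

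The banding arrays kept a similar order across the steps. Banding replicate 1 held the highest banding value in 32 of the 39 genes, banding replicate 4 the lowest in 22 and banding replicate 5 the lowest in 11. Averaged over the 39 genes, the difference from the sham mean was -0.71, -1.03, -0.85, -1.17 and -1.12 on banding replicates 1 to 5, and -0.00, 0.07, 0.01 and -0.08 on sham replicates 1 to 4. The summed level of the cardiomyocyte markers was also highest on banding replicate 1 (18.89) and lowest on banding replicates 4 (18.67) and 5 (18.68).

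**Figure D2:**
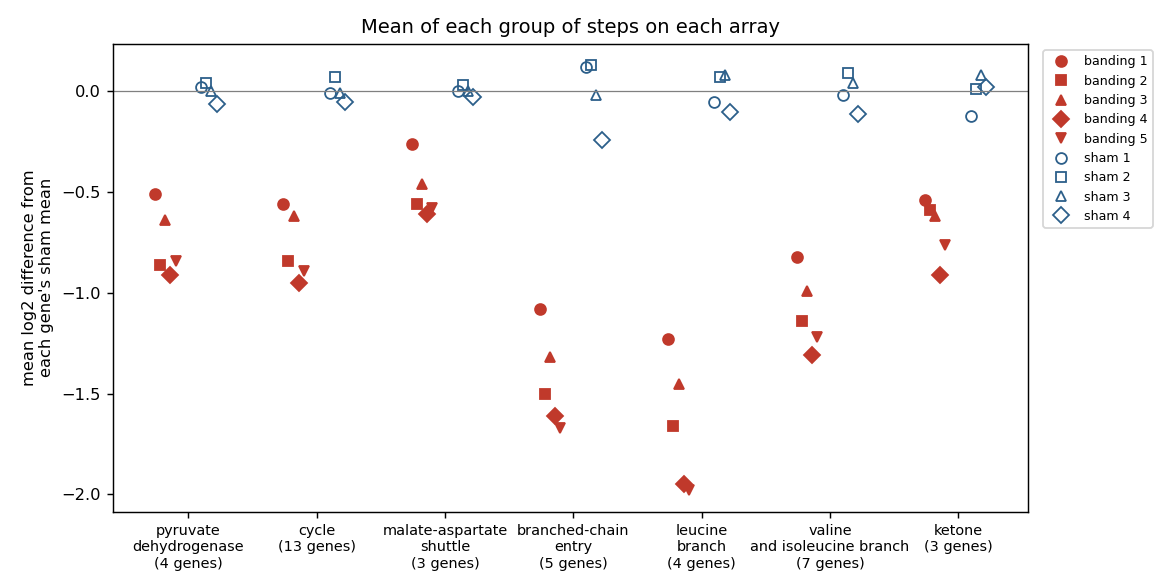
For each group of steps, the points give the mean over its genes of the log2 difference from the gene's sham mean, 1 point per array, with banding arrays left and filled and sham arrays right and open. The leucine branch reaches from -1.23 to -1.98 on the banding arrays, and the cycle from -0.56 to -0.95.

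All 4 genes of the pyruvate dehydrogenase complex fell. Pdhx encodes the component that anchors the E3 enzyme to the core. It stood at 10.15, 9.89, 10.07, 9.84 and 9.88 in banding and at 11.20, 11.20, 11.19 and 10.94 in sham. Its groups were 0.79 apart at their nearest, and the fall was 2.25-fold (-1.17 ± 0.09 log2 units, SE, adjusted p = 7.04e-05). Dlat, the E2 acetyltransferase of the core, fell 1.63-fold (adjusted p = 0.000576) and lay at 11.84 to 12.25 in banding and 12.59 to 12.83 in sham. The subunits of the E1 enzyme that decarboxylates pyruvate also fell, Pdhb 1.52-fold (adjusted p = 0.00242) and Pdha1 1.45-fold. Pdhb lay at 13.24 to 13.72 in banding and 14.03 to 14.12 in sham. Pdha1 averaged 13.26 ± 0.20 in banding (SD, n = 5), against 13.80 ± 0.02 in sham (SD, n = 4; -0.53 ± 0.10, SE, limma adjusted p = 0.00353). Dimmer probe sets gave differences of -1.68 ± 0.23 for Dlat, -0.96 ± 0.14 for Pdhb and -0.85 ± 0.13 for Pdha1, so the order of these falls rests on the choice of probe set.

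In the cycle, 12 of 13 genes fell. The largest fall on the brightest probe sets was in Suclg2, the subunit that makes succinyl-CoA synthetase form GTP, with 11.61, 11.20, 11.64, 10.93 and 10.92 in banding and 12.60, 12.67, 12.72 and 12.50 in sham. The groups lay 0.86 apart at their nearest, and the fall was 2.57-fold (-1.36 ± 0.18, SE, adjusted p = 0.000672). Sucla2, the partner subunit that makes the enzyme form ATP, stood at 13.85, 13.68, 13.92, 13.62 and 13.77 in banding and at 14.46, 14.51, 14.31 and 14.40 in sham. Its fall was 1.57-fold (-0.65 ± 0.07, adjusted p = 0.000305). Suclg1, the alpha subunit that both forms share, fell 1.96-fold, at 12.76 to 13.25 in banding and 13.87 to 13.99 in sham (adjusted p = 0.000341).

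Idh2, the mitochondrial isocitrate dehydrogenase that yields NADPH, stood at 12.52, 12.08, 12.28, 11.62 and 11.77 in banding and at 13.30, 13.59, 13.36 and 13.33 in sham. Banding replicates 4 and 5 were the lowest, and the fall was 2.53-fold (-1.34 ± 0.19, SE, adjusted p = 0.000966). The NAD-dependent isocitrate dehydrogenase, which catalyses the same step within the cycle, is built from Idh3a, Idh3b and Idh3g. Their falls on the brightest probe sets were 1.41-fold, 1.47-fold and 1.73-fold. Idh3g, which fell furthest of these, lay at 13.04 to 13.29 in banding and 13.90 to 13.99 in sham (adjusted p = 8.31e-05). Fh1, the fumarase, fell 2.08-fold (-1.06 ± 0.11, adjusted p = 0.000282), with 13.02, 12.71, 12.97, 12.55 and 12.57 in banding and 13.77, 13.87, 13.91 and 13.76 in sham.

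Cs, which encodes citrate synthase, averaged 14.14 ± 0.11 in banding (SD, n = 5), against 14.69 ± 0.04 in sham (SD, n = 4). Its groups did not overlap and it fell 1.47-fold (adjusted p = 0.000246). Its 3 probe sets gave -0.55, -0.68 and -0.59.

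The 2-oxoglutarate dehydrogenase complex fell unevenly on the brightest probe sets. Dlst, its E2 component, fell 1.94-fold (-0.96 ± 0.11, adjusted p = 0.000338), and Dld, the E3 enzyme shared with the pyruvate and branched-chain complexes, 1.83-fold (-0.87 ± 0.11, adjusted p = 0.000595). Dlst lay at 11.62 to 12.13 in banding and 12.74 to 12.88 in sham, with the groups well separated. Ogdh, the E1 component, fell 1.26-fold (-0.34 ± 0.09, adjusted p = 0.0171), with 13.39, 13.27, 13.43, 13.19 and 13.34 in banding and 13.80, 13.81, 13.60 and 13.45 in sham. The gap between its groups was 0.02, and sham replicate 4 was the sham array nearest to banding. A dimmer probe set of Ogdh differed by -1.02 ± 0.15. Those of Dlst above the dim level differed by -1.30 ± 0.15 and by -0.47 ± 0.33, and the latter did not pass.

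Mdh2, the mitochondrial malate dehydrogenase, did not pass on its brightest probe set, with 15.15, 15.08, 15.17, 15.12 and 15.07 in banding and 15.20, 15.23, 15.15 and 15.15 in sham (-0.07 ± 0.03, SE, adjusted p = 0.0905). These values lie near the highest in the table, 16.43. A second probe set of Mdh2, at 14.08 ± 0.12 in banding (SD, n = 5), against 14.45 ± 0.08 in sham (SD, n = 4), was lower in banding by limma over all probe sets (-0.37 ± 0.07, adjusted p = 0.00462), and averaging both probe sets took the gene past the threshold (-0.22, adjusted p = 0.00419).

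The malate-aspartate shuttle carries reducing equivalents from the cytosol into mitochondria. Both of its aminotransferases fell, the cytosolic Got1 1.64-fold (-0.72 ± 0.11, adjusted p = 0.00178) and the mitochondrial Got2 1.58-fold (-0.66 ± 0.09, adjusted p = 0.000744). Got1 lay at 13.11 to 13.71 in banding and 14.00 to 14.10 in sham, and Got2 at 12.64 to 13.06 in banding and 13.40 to 13.49 in sham. Mdh1, the cytosolic malate dehydrogenase, fell 1.07-fold on its brightest probe set, with 15.18, 15.10, 15.17, 15.17 and 15.14 in banding and 15.28, 15.23, 15.27 and 15.25 in sham (-0.10 ± 0.02, adjusted p = 0.00389). That call was lost with quantile normalisation (-0.06, adjusted p = 0.0788) and with dim genes left out (adjusted p = 0.104). Of its dimmer probe sets, 1 near the same level did not pass (-0.15 ± 0.08), and 2 below a level of 15 were lower, by differences of -0.39 ± 0.06 and -1.51 ± 0.28.

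On the brightest probe sets, the branched-chain amino acid steps held the largest falls. Among all probe sets above the dim level, the largest fall was that of a dimmer one of Acat1, of the ketone group, at -2.14. Bcat2, the mitochondrial aminotransferase of the first step, stood at 7.12, 6.40, 6.60, 6.71 and 6.74 in banding and at 8.45, 8.39, 7.88 and 7.56 in sham. The sham arrays were spread widely, with replicate 4 the lowest, and the fall was 2.56-fold (-1.36 ± 0.22, SE, adjusted p = 0.00199).

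The dehydrogenase complex that follows fell in all its own catalytic parts. Bckdhb, the beta subunit of its E1 enzyme, stood at 10.36, 9.78, 10.08, 9.45 and 9.51 in banding and at 11.58, 11.71, 11.76 and 11.59 in sham. The groups were 1.22 apart at their nearest, and the fall was 3.54-fold (-1.83 ± 0.19, SE, adjusted p = 0.000276). Dbt, the E2 transacylase, lay at 8.35 to 9.22 in banding and 10.15 to 10.61 in sham and fell 3.13-fold (-1.65 ± 0.22, adjusted p = 0.000802). Bckdha, the alpha subunit of E1, stood at 9.57, 9.34, 9.32, 9.01 and 8.82 in banding and at 10.85, 10.83, 10.87 and 10.50 in sham, a 2.93-fold fall (-1.55 ± 0.16, adjusted p = 0.000268).

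Bckdk encodes the kinase that phosphorylates Bckdha and switches the complex off. It fell 1.74-fold (-0.80 ± 0.06, adjusted p = 6.66e-05), with 9.02, 8.90, 8.80, 9.02 and 8.86 in banding and 9.81, 9.74, 9.68 and 9.65 in sham. Unlike the catalytic subunits, it was not lowest on banding replicates 4 or 5 but on banding replicate 3. Ppm1k, the phosphatase that switches the complex on and is no member of the 39, fell 5.2-fold (-2.38 ± 0.21, adjusted p = 0.000148). It stood at 9.40, 8.94, 9.33, 8.59 and 8.58 in banding and at 11.13, 11.59, 11.21 and 11.45 in sham.

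All 4 genes of the leucine branch fell by at least 1 log2 unit. Mccc2, a subunit of methylcrotonoyl-CoA carboxylase, stood at 8.70, 8.35, 8.46, 7.75 and 7.86 in banding and at 10.100 to 10.119 on sham replicates 1 to 3 and 10.005 on sham replicate 4. Its sham values were tightly grouped, the nearest banding value lay 1.31 below them, and the fall was 3.63-fold (-1.86 ± 0.20, SE, adjusted p = 0.000293). Ivd, the isovaleryl-CoA dehydrogenase of the preceding step, stood at 10.33, 9.86, 10.13, 9.43 and 9.30 in banding and at 11.63, 11.69, 11.82 and 11.54 in sham. It fell 3.62-fold (-1.86 ± 0.22, adjusted p = 0.000471). Mccc1, the biotin-carrying subunit of the carboxylase, fell 2.55-fold, at 9.78 to 10.42 in banding and 11.28 to 11.56 in sham (adjusted p = 0.000246). Auh, the methylglutaconyl-CoA hydratase, fell 2.95-fold, at 9.39 to 9.89 in banding and 10.97 to 11.25 in sham (adjusted p = 8.26e-05). The other probe sets of Ivd, Mccc1 and Mccc2 gave falls between -1.98 and -1.58, while 5 probe sets of Auh lay below the dim level.

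All 7 genes of the valine and isoleucine branch fell. Pcca, the biotin-carrying alpha subunit of propionyl-CoA carboxylase, fell 2.76-fold, with 10.05, 9.63, 9.85, 9.35 and 9.52 in banding and 11.11, 11.19, 11.31 and 10.98 in sham (-1.46 ± 0.15, SE, adjusted p = 0.000221). Pccb, its beta subunit, fell 1.96-fold (-0.97 ± 0.12, adjusted p = 0.000457), with 9.66, 9.31, 9.50, 9.24 and 9.21 in banding and 10.31, 10.56, 10.38 and 10.16 in sham. The valine enzymes Hibadh and Hibch, which oxidise and release hydroxyisobutyrate, fell 2.29-fold and 2.24-fold. Hibadh lay at 12.06 to 12.56 in banding and 13.35 to 13.53 in sham, and Hibch at 9.93 to 10.36 in banding and 11.24 to 11.46 in sham. Neither gene had groups that overlapped. Aldh6a1, the methylmalonate semialdehyde dehydrogenase, fell 2.21-fold, at 10.89 to 11.67 in banding and 12.32 to 12.55 in sham (adjusted p = 0.00102). A second Hibch probe set gave a smaller fall, 1.56-fold (-0.64 ± 0.12). The acyl-CoA dehydrogenases fell on their brightest probe sets, Acadsb of the isoleucine branch at 1.91-fold and Acad8 of the valine branch at 1.76-fold. Acadsb lay at 9.51 to 9.80 in banding and 10.49 to 10.72 in sham, and Acad8 at 7.88 to 8.34 in banding and 8.81 to 8.98 in sham.

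Of the 3 ketone genes, 2 fell and Bdh1 did not pass on its brightest probe set. Acat1, the mitochondrial thiolase that splits acetoacetyl-CoA and also ends isoleucine breakdown, stood at 12.14, 11.87, 12.32, 11.58 and 11.60 in banding and at 13.38, 13.51, 13.37 and 13.44 in sham. The groups were 1.05 apart at their nearest, and the fall was 2.87-fold (-1.52 ± 0.16, SE, adjusted p = 0.000292). Its other probe sets gave -1.45 ± 0.19 and -2.14 ± 0.17.

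Oxct1 encodes the CoA transferase that activates acetoacetate and is the committed step of ketone use. It stood at 14.39, 14.24, 14.39, 14.12 and 14.18 in banding and at 14.73, 14.69, 14.59 and 14.67 in sham, a 1.32-fold fall (-0.40 ± 0.07, adjusted p = 0.00198). Of its 3 dimmer probe sets, 1 was lower (-0.79 ± 0.10, adjusted p = 0.000772 over all probe sets), and the others differed by -0.04 ± 0.17 and -0.14 ± 0.09 and did not pass.

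Bdh1, which interconverts hydroxybutyrate and acetoacetate, stood at 11.30, 11.56, 10.89, 11.03 and 11.40 in banding and at 10.99, 11.30, 11.75 and 11.42 in sham. The groups overlapped throughout, and the difference of -0.13 had a 95% interval of -0.57 to 0.31 (adjusted p = 0.678). A dimmer probe set, at 8.43 ± 0.29 in banding (SD, n = 5), against 9.39 ± 0.28 in sham (SD, n = 4), was lower by limma over all probe sets (-0.96 ± 0.18, adjusted p = 0.00544). Averaged over its probe sets, the gene just passed (-0.55, adjusted p = 0.0492), so its call rests on the choice of probe set.

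The probe sets of a gene did not always give the same answer. The 39 genes had 88 probe sets, of which 15 lay below the dim level on average and none of those passed. Of the 73 above it, 66 were lower in banding, 1 was higher and 6 did not pass, with p-values adjusted over all 34945 probe sets, of which 28.9% of those above the dim level were called lower. Each of the 39 genes had at least 1 such probe set called lower. In 16 of the 23 genes with more than 1 probe set above the dim level, the dimmest gave the lower difference. Over the 39 genes, the brightest probe set's mean level and its difference correlated at a Pearson r of 0.65 and a Spearman rho of 0.71 (n = 39 genes). The genes share the arrays and the upper end of the scale, and whether that end compresses the differences of bright probe sets was not tested.

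The probe set that rose belongs to Idh3b. It averaged 9.69 ± 0.15 in banding (SD, n = 5), against 9.38 ± 0.05 in sham (SD, n = 4), a difference of 0.31 ± 0.08 (SE, limma adjusted p = 0.0167). The brightest Idh3b probe set, at 13.10 ± 0.18 in banding (SD, n = 5), against 13.66 ± 0.08 in sham (SD, n = 4), was lower by 1.47-fold (-0.56 ± 0.09, limma adjusted p = 0.00227). Another, dimmer one differed by -0.97 ± 0.16. The direction of Idh3b therefore turns with the choice of probe set. Its difference was 0.31 when probe sets with names ending in _x_at or _s_at were left out. That filter kept the probe set that rose, whose name ends in _a_at, and dropped the brightest. For Idh3a the dimmer probe sets gave -1.43 ± 0.21 and -1.65 ± 0.20, against -0.49 ± 0.08 on the brightest.

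**Figure D3:**
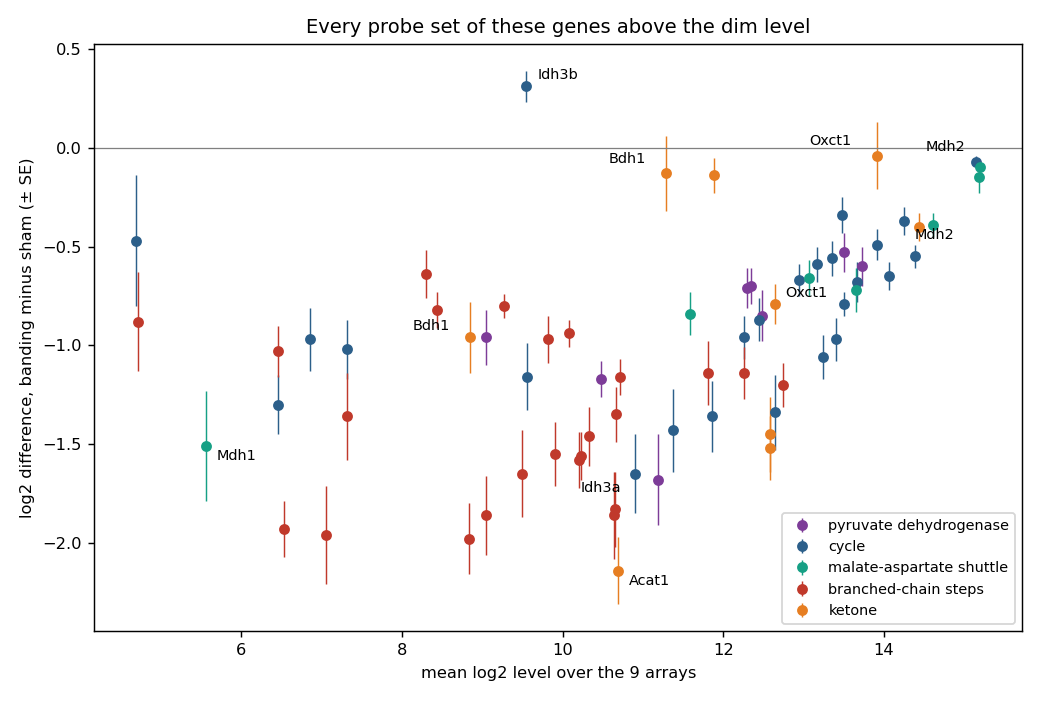
Each point is 1 of the 73 probe sets above the dim level, placed by its mean log2 level over the 9 arrays and its difference of banding minus sham with the SE. The bright probe sets of Mdh1 and Mdh2 lie near 0 at a level of about 15, and 1 probe set of Idh3b lies above 0 at 0.31.

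Partner genes were compared by their log2 ratio within each array, in 14 pairs, with an exact two-sided permutation test over all 126 splits of the arrays and Benjamini-Hochberg adjustment over the pairs. Of the 14 pairs 8 passed, each with an exact p of 0.00794, the smallest this design can give, and an adjusted p of 0.0139. A ratio within an array shows unequal change and not which partner changed.

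Oxct1 over Acat1 shifted by 1.12 ± 0.11 (SE), with a mean ratio of 2.36 ± 0.21 in banding (SD, n = 5), against 1.24 ± 0.07 in sham (SD, n = 4). Its shift was positive in all 12 combinations of the probe sets above the dim level, between 0.65 and 2.10. Cs over Idh2 shifted by 0.79 ± 0.15, positive in 3 of 3 combinations, although it was 0.06 with the mean of all probe sets, which for Idh2 includes a dim one.

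Bckdk over Bckdha shifted by 0.75 ± 0.16. The ratio was -0.55, -0.44, -0.53, 0.01 and 0.03 in banding and -1.04, -1.08, -1.20 and -0.86 in sham, so the kinase fell less than its target on every banding array relative to sham. Sucla2 over Suclg2 shifted by 0.71 ± 0.15, with 2.24, 2.48, 2.28, 2.69 and 2.85 in banding and 1.86, 1.84, 1.59 and 1.90 in sham. Both shifts were positive in 2 of 2 combinations of probe sets.

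Pcca over Pccb shifted by -0.50 ± 0.08, with 1 combination of probe sets above the dim level, and by 0.24 with the mean of all probe sets, which for Pcca includes a probe set at the floor. Mccc1 over Mccc2 shifted by 0.51 ± 0.11, positive in 5 of 6 combinations. Ogdh over Dlst shifted by 0.62 ± 0.10 and Idh3a over Idh3g by 0.29 ± 0.07, but these were positive in only 4 of 6 and 2 of 6 combinations. With the mean of all probe sets, which for Dlst and Idh3a includes a dim one, these shifts were 0.01 and -0.29.

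The other 6 pairs did not pass, namely Bckdha over Bckdhb (0.27 ± 0.11, adjusted p = 0.0741 by exact permutation), Pdha1 over Pdhb (0.07 ± 0.03), Got1 over Got2 (-0.06 ± 0.04), Mdh1 over Mdh2 (-0.04 ± 0.03), Idh3a over Idh3b (0.07 ± 0.09) and Oxct1 over Bdh1 (-0.27 ± 0.23). None of these sizes shows that the partners moved alike. Here too the shift rested on the choice of probe set, with the sign of the brightest in 2 of 9 combinations for Idh3a over Idh3b, 3 of 8 for Oxct1 over Bdh1, 6 of 8 for Mdh1 over Mdh2, 3 of 4 for Pdha1 over Pdhb and 1 of 2 for Got1 over Got2. With the mean of the probe sets, Idh3a over Idh3b shifted by -0.61, Oxct1 over Bdh1 by 0.20 and Got1 over Got2 by -0.33. Without the _x_at and _s_at probe sets, 10 of the 14 pairs passed, with Idh3a over Idh3b at -0.80 and Mdh1 over Mdh2 at -0.32.

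**Figure D4:**
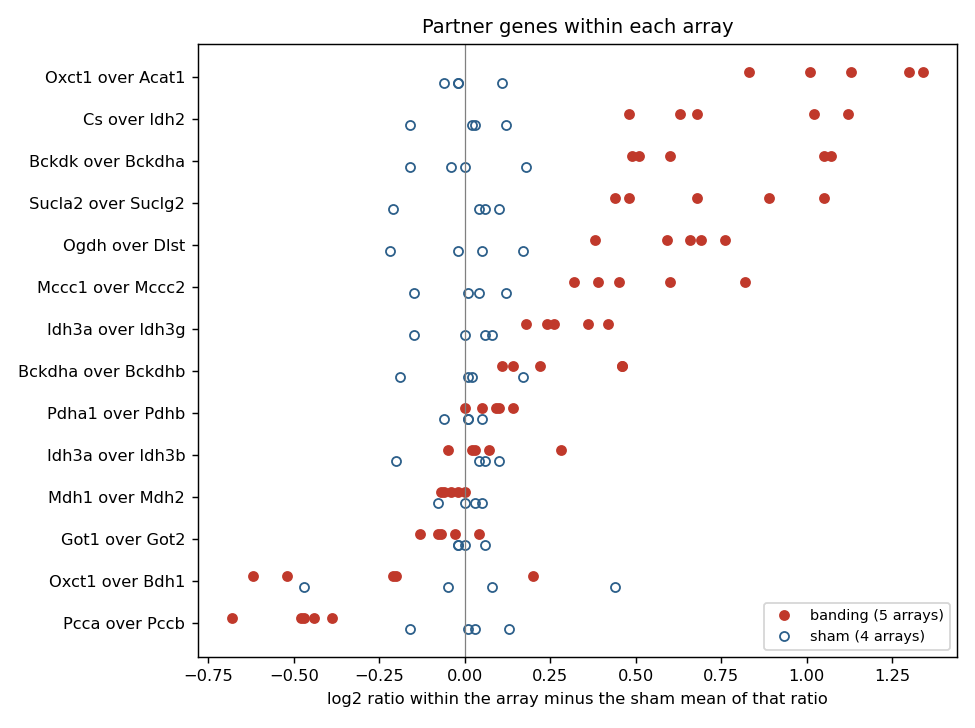
Each row is a pair of genes and each point an array, placed by the log2 ratio of the pair on that array minus the mean of the ratio over the 4 sham arrays, with banding arrays filled and above and sham arrays open and below. The banding points lie apart from the sham points for the upper 7 rows and for Pcca over Pccb.

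Other genes of the same pathways moved mostly the same way. Of 42 measured, 29 were lower in banding and 7 were higher, against 20.0% of all genes lower and 18.4% higher. The other 6 missed the threshold, and the median difference was -0.88. Mmut, the methylmalonyl-CoA mutase that passes propionyl carbon into the cycle, fell 3.08-fold (-1.62 ± 0.15, adjusted p = 0.000154). Mmaa, which helps to load its cobalamin cofactor, fell 2.3-fold, and Hsd17b10, a dehydrogenase of isoleucine breakdown, fell 2.32-fold (adjusted p = 7.82e-05).

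The lipoyl cofactor is carried by the E2 components Dlat, Dlst and Dbt. Its synthase Lias fell 1.95-fold (adjusted p = 0.000104), and the lipoyltransferases Lipt1 and Lipt2 fell 2.17-fold and 1.8-fold. The malic enzymes Me1, which is cytosolic, and Me3, which is mitochondrial, fell 2.16-fold (adjusted p = 2.27e-05) and 2.62-fold (adjusted p = 9.13e-05). Among the genes that did not pass, Slc3a2, the heavy chain of a branched-chain amino acid transporter, differed by 0.39 ± 0.15 (adjusted p = 0.0818), and Slc25a44, a mitochondrial carrier of these amino acids, by -0.15 ± 0.12 (adjusted p = 0.413). Slc25a1, the citrate carrier, differed by 0.69 ± 0.24 (adjusted p = 0.0531) and passed without sham replicate 4 (0.94, adjusted p = 0.00143), with median centring (adjusted p = 0.0382) and with dim genes left out (adjusted p = 0.0176). Slc3a2 passed with dim genes left out (adjusted p = 0.0353) and without banding replicate 1 (0.48, adjusted p = 0.0321). Abat, the GABA aminotransferase, differed by -0.55 ± 0.26 (adjusted p = 0.152).

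Regulators of the dehydrogenases went in both directions. Pdp2, a phosphatase that activates pyruvate dehydrogenase, fell at least 6.51-fold, with 4.60, 3.92, 4.43, 4.02 and 3.95 in banding, where its mean lay under the dim level, and 6.86 to 7.24 in sham (adjusted p = 3.21e-05). The following genes were picked after their values were seen. Pdp1, the other phosphatase, fell 1.99-fold. Of the kinases that inactivate the complex, Pdk4 fell 3.81-fold (-1.93 ± 0.28, adjusted p = 0.00103) and Pdk2 fell 2.91-fold, while Pdk3 rose 4.47-fold (2.16 ± 0.31, adjusted p = 0.00105) and Pdk1 rose 1.88-fold. Bcat1, the cytosolic counterpart of Bcat2, rose at least 1.89-fold, with 4.79, 6.41, 4.97, 4.42 and 5.00 in banding and 2.87, 3.08, 3.61 and 3.60 in sham, where its mean was under the dim level (adjusted p = 0.00852). The other genes that rose were Pck2 (1.11 ± 0.14), Bdh2 (0.93 ± 0.26), Aco1 (0.53 ± 0.15) and Slc7a5, which rose at least 2-fold, with its sham mean under the dim level.

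**Figure D5:**
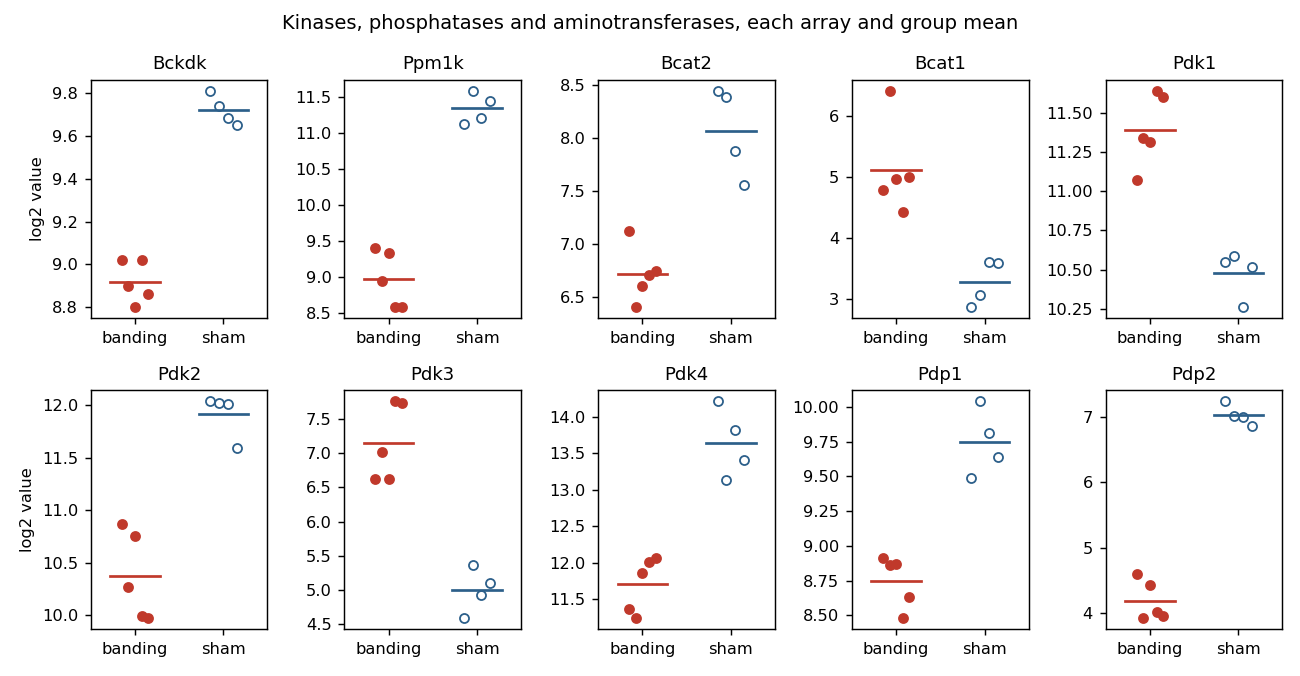
Panels give the log2 values of each array with the group mean as a line, banding left and sham right, for the branched-chain regulators and aminotransferases and the kinases and phosphatases of pyruvate dehydrogenase, each panel on its own axis. In banding Ppm1k fell by 2.38 log2 units and Pdp2 at least 6.51-fold, and Pdk3 and Bcat1 were higher.

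Because so many of these genes moved together, their promoters were searched for letters known to bind the mitochondrial regulators NRF1 and ERR. RefSeq promoter sequences from GRCm38.p6, each from 250 bases before to 50 after the start, were held for 36 of the 39 genes, 46 promoters in all. The NRF1 motif (GCGCA, any base, then GCGC), on either strand, was found in 4 of these 46 (8.7%), those of Dld, Hibadh, Pccb and Sucla2, and in 4.6% of all 32851 promoters. The ERR motif TNAAGGTCA was in 0 of the 46 and in 1.28% of all. Its core AAGGTCA, which lies within it, was in 2 of the 46 (4.35%), those of Got1 and Ogdh, and in 4.72% of all. A match describes letters and is not a binding site, and the absence of a match says only that these letters are not in this window.

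The windows of 60 bases below show the matches that lie upstream of the start, in capitals, each read 5′ to 3′ along the strand of the gene. That of Hibadh lies on the minus strand at chr6:52640332-52640391, of Pccb on the minus strand at chr9:101034919-101034978, of Sucla2 on the plus strand at chr14:73552726-73552785 and of Got1 on the minus strand at chr19:43524796-43524855. In Hibadh and Sucla2 the motif reads on the opposite strand. The 4 genes fell 2.29-fold, 1.96-fold, 1.57-fold and 1.64-fold in that order, within the range of the genes without a match.
Hibadh, NRF1 motif: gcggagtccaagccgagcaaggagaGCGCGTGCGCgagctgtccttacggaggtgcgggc
Pccb, NRF1 motif: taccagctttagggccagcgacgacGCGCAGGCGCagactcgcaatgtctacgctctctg
Sucla2, NRF1 motif: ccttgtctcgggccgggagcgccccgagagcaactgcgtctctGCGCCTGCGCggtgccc
Got1, ERR core: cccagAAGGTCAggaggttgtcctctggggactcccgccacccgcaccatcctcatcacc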

How the data were processed

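Right ventricular RNA of 5 banding and 4 sham samples was measured on Affymetrix arrays. The authors deposited log2 expression values per probe set. RMA and GCRMA are named, without version, role or order, per the submitters' processing notes, and values ran from 2.198 to 16.43, as log2 intensities do. Array medians lay between 3.23 and 3.31. Of 45101 probe sets, 64 controls, 9160 naming no gene and 932 naming several were left out, and the other 34945 named 18193 genes. Symbols are those of the platform annotation.

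The groups were compared with limma 3.58.1 in R 4.3.3 (lmFit and eBayes, two-sided, no covariate), with Benjamini-Hochberg adjustment over all genes and a threshold of 0.05. Where a group's mean was under the dim level, 4.198, each of its arrays below that level was raised to it before averaging, and the fold was given as "at least". The fit was tested on simulated data. Figures were drawn with Python 3.11.15 and matplotlib 3.10.9.

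The 39 genes, the pathway and marker lists, the pairs and the tests were chosen with earlier results of these data known. Named genes are all 39, the 10 other pathway genes past the threshold with the smallest p and the 4 brightest that did not pass, beside those said to be picked later. The motifs were chosen after the data were seen. The 3′ minus 5′ difference of the Gapdh control was -0.16 to -0.13 in banding and -0.18 to 0.02 in sham, and that of Actb 0.83 to 0.89 in banding and 0.98 to 1.16 in sham. The part of RNA quality in the results was not tested. Alternatives were the mean of a gene's probe sets, the probe sets with names not ending in _x_at or _s_at, quantile normalisation and median centring. Others were a filter on dim genes, a trended robust variance, a replicate block and each array left out. Of 48 further pathway genes listed, those not among the 42 measured were not analysed here.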

Additional observations from a re-analysis of the deposited data

Results flagged for a closer look

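In each of the 39 genes, the highest and lowest array of a group was set against the others by its gap over the group's range, 78 groups in all, of which chance would flag about 1 in 20. The 3 flagged, no more than that share, were all low values on sham replicate 4. Pdhx stood at 10.945 there, against 11.195 to 11.197 on the other sham arrays. Bckdha stood at 10.504, against 10.827 to 10.873, and Mccc2 at 10.005, against 10.100 to 10.119. Each of these lay above every banding value of its gene. Sham replicate 4 also carried the most liver transcripts, and the part of these in the low values was not tested.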

How the results depend on the processing

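The count of genes lower in banding was 35 to 39 under every alternative, and the median lay between -1.03 and -0.90. It was 35 of the 38 genes still measured when the _x_at and _s_at probe sets were left out. Of the 39 genes 33 were lower and past the threshold under every setting that measured them (Acadsb was not measured without the _x_at and _s_at probe sets). The others were Mdh2 and Bdh1, which passed only with the mean of the probe sets, Mdh1, Idh3b, and, with the replicate number as a block, Pdha1 (-0.51, adjusted p = 0.0505) and Ogdh (-0.34, adjusted p = 0.0516). Idh3b turned to 0.31 (adjusted p = 0.0137) without the _x_at and _s_at probe sets, through its other probe set. Deviations of same-numbered arrays correlated between -0.0343 and 0.0357, and the labels state no pairing. Such low correlations cannot show that same-numbered samples share nothing but the number. With the replicate block 5277 genes passed, against 6989 without it, and 35 of the 39. With each array left out in turn, 6270 to 6701 genes and 37 of the 39 passed. Of the 14 pairs 7 to 9 passed, against 10 without the _x_at and _s_at probe sets. Without banding replicate 2, 3, 4 or 5 the groups were of equal size and 8 pairs passed, each at the smallest exact p. Their adjusted p then lies at the threshold itself, so this count rests on rounding. The pairs were not run with the replicate block, since 4 pairs of arrays cannot reach the threshold by exact permutation.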
